A study of Mus musculus with 8 samples.

Results

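The genes described here are 7 transcripts of the intrinsic cell-death pathway that times the life of a platelet: Bcl2l1, Bcl2, Mcl1, Bak1, Bax, Bad and Casp9. They were chosen by name, with earlier results of these data known, and are 7 of the 43548 genes in the expression table. Platelets are fragments of megakaryocytes that carry mitochondria and some RNA but no nucleus, so the transcripts they hold were packed in the bone marrow. RNA was sequenced from washed platelets of 4 TNFdARE mice and 4 Control littermates, each group holding 2 females and 2 males without further treatment, to ask how chronic TNF-α excess alters platelet transcripts. TNFdARE mice, backcrossed to C57BL/6J, lack the AU-rich element that destabilises the Tnf message in every cell, and they develop arthritis and ileitis. The change is therefore not limited to megakaryocytes, and effects of TNF-α on platelets cannot be told apart from those of the disease. The number of altered Tnf copies per mouse is not given in the sources used here. The descriptions of the samples give an age of 8 to 12 weeks, while another text among them gives 5.2 months, and the number of mice is given as 3 per group in places although 4 libraries per group are present. Tnf itself was listed at 0 in all 8 libraries, so the table holds no check of the genotype.

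Mitochondrial apoptosis is set by the balance within the BCL-2 family. Pro-survival members (BCL-XL, the product of Bcl2l1, with BCL-2 and MCL-1) restrain the effectors BAK (from Bak1) and BAX, which otherwise open the outer mitochondrial membrane. BH3-only proteins such as BAD bind and neutralise the pro-survival members, and cytochrome c freed from mitochondria lets APAF1 activate caspase-9, the initiator caspase encoded by Casp9. In platelets BCL-XL is the main restraint on BAK, and loss of BCL-XL function is known to shorten platelet life, whereas megakaryocytes also rely on MCL-1.

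Pro-survival members and effectors share folds as well as a pathway, and one stretch they have in common is the BH1 motif, part of the groove into which BH3 helices bind. The 30-base coding windows below are shown because they carry the BH1 signature (Asn or Ser followed by Trp-Gly-Arg, searched in frame on the coding strand), whose 12 bases are in capitals. Sequences and positions come from the GENCODE M21 annotation of mouse build mm10 and are written 5′ to 3′ on the strand of the gene. Of 21490 protein-coding genes searched, 46 (0.214%) held the signature, among them 9 of 25 genes on the lists of BCL-2 relatives. It was not found in the coding sequence of Bad or Casp9.
Bcl2l1, exon 2 of 3, chr2:152829565-152829594, minus strand: gatggagtaAACTGGGGTCGCatcgtggcc
Bcl2, exon 1 of 2, chr1:106712443-106712472, minus strand: gatggggtgAACTGGGGGAGGattgtggcc
Mcl1, exon 2 of 3, chr3:95659841-95659870, plus strand: ggcgtaacaAACTGGGGCAGGattgtgact
Bak1, exon 5 of 6, chr17:27021308-27021337, minus strand: agtggcatcAGCTGGGGCCGCgtggtggct
Bax, exon 4 of 6, chr7:45465222-45465251, minus strand: ggcaacttcAACTGGGGCCGCgtggttgcc

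Within these windows Bcl2l1 and Bcl2 shared the most bases, 24 of 30, and the effectors Bak1 and Bax shared 22. Mcl1 matched Bcl2l1 at 19 bases and Bcl2 at 20. No transcript of another gene matched Bcl2l1 or Mcl1 over at least 150 bases at 95% identity, whereas Bcl2, Bak1 and Bax each matched an overlapping neighbour. Some of the 7 share exonic bases with a neighbour on the opposite strand, where reads cannot be assigned unless strand was used, which is not given in the sources used here. These overlaps covered 558 bases of Bcl2 (with D630008O14Rik), 437 of Bak1 (with Ggnbp1), 524 of Bad (with Gpr137) and 94 of Casp9 (with Ctrc). Bax shared 192 exonic bases with Gm45808 on its own strand.

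Values were taken as FPKM because the processing notes name Cufflinks, although no header states the unit. FPKM are fragment counts scaled by transcript length and by the size of the library. On that reading, levels of different genes can be compared per length. Read depth is unknown. The libraries were sparse. Between 818 and 4917 genes were above 0 in a library, 409 genes were above 0 in all 8, and AY036118, a locus that overlaps ribosomal RNA, took 33.7% to 67.7% of the summed FPKM. TNFdARE mouse 1 stood apart, with the fewest genes above 0 and the largest AY036118 share, and results for those of the 7 genes that were above 0 are also given without it. A value of 0 may be a failed estimate, since genes used by nearly every cell were also listed at 0: Hprt in 8 libraries, Ppia in 6 and Gapdh in 5, whereas Actb ranged from 51.1 to 97.3 FPKM. Platelet identity was clear, with 14 of 14 platelet and megakaryocyte markers above 0 in some library and 12 in all 8. Their summed levels were 1225 to 1707 FPKM in Control and 1158 to 1296 FPKM in TNFdARE libraries. Erythroid markers summed to 788 to 2227 FPKM in Control and 1140 to 14700 FPKM in TNFdARE libraries. Of the 13 markers found in the table, 12 were above 0 in some library and 7 in all 8, with Klf1 at 0 throughout. Leukocyte markers were uneven. Monocyte genes summed to 30.8 to 50.3 FPKM in Control and 12.0 to 36.1 FPKM in TNFdARE libraries, nearly all of it Lyz2, above 0 in all 8 and above every Bcl2l1 value given below. Neutrophil genes summed to at most 10.3 FPKM, B-cell genes to at most 13.7 and T-cell genes to at most 1.02, and Csf3r, Cd68, Cd79a and Cd3e were listed at 0 in all 8 libraries. In bulk platelet RNA, fewer cells of a type and less RNA per cell cannot be told apart.

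Bcl2l1 was the most widely detected of the 7 genes over the 8 libraries (Bcl2l1, ENSMUSG00000007659, chr2:152780668-152831728, minus strand, 9 annotated transcripts). It was above 0 in 4 Control and 3 TNFdARE libraries, against 1 and 3 for Mcl1, and no other of the 7 genes was above 0 in more than 2. In Control mice 1 to 4 it measured 3.13, 1.63, 8.23 and 8.58 FPKM. In TNFdARE mice 1 to 4 it measured 0, 2.40, 6.43 and 7.43 FPKM. Control mice 3 and 4 and TNFdARE mice 3 and 4 were high, Control mouse 2 and TNFdARE mouse 2 were low, and the ranges of both genotypes overlapped. Within a library Bcl2l1 lay above 46.8% to 86.6% of detected genes in Control and above 65.7% to 90.9% in TNFdARE mice 2 to 4. The part of erythroid or leukocyte RNA in the Bcl2l1 values was not tested.

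**Figure D1:**
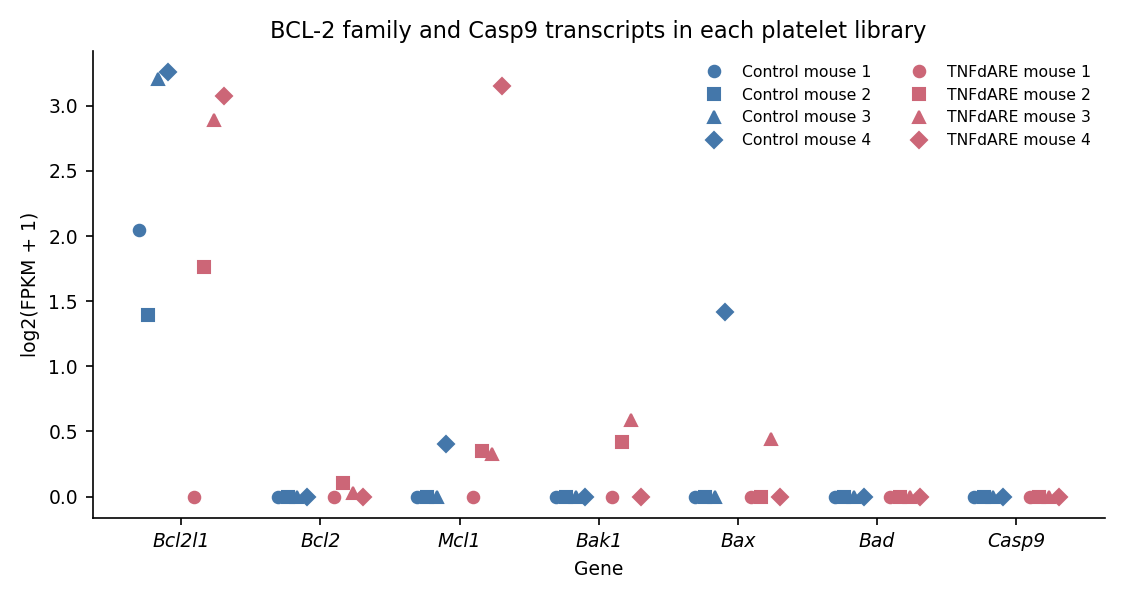
Level of each of the 7 genes in each platelet library, as log2(FPKM + 1); each point is 1 mouse, blue for Control and red for TNFdARE, with 1 marker shape per replicate number. Bcl2l1 is above 0 in 7 of 8 libraries, Mcl1 reaches 7.89 FPKM in TNFdARE mouse 4 alone, and Bad and Casp9 lie at 0 throughout.

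The genotype difference of Bcl2l1 was smaller than the spread between mice. Group means on the log2(FPKM + 1) scale, which understates changes of low genes, were 2.48 (SD 0.91, n = 4) in Control and 1.93 (SD 1.41, n = 4) in TNFdARE libraries. The difference of TNFdARE minus Control was -0.54 with a standard error of 0.81 and a 95% interval of -2.29 to 1.20 (limma, adjusted p = 0.89). A two-sided exact permutation test over the 8 mice gave p = 0.54, where 0.0286 is the smallest p that 4 against 4 allows. The interval spans a fall or a rise of more than 1 log2 unit, so these libraries do not fix the direction. Without TNFdARE mouse 1 the difference was 0.10, the one alternative of 19 in which its sign turned. The 0 of Bcl2l1 in that library was shared by 59.0% (362) of the 614 tested genes whose mean lay within 2-fold of its own; whether it reflects the mouse or the sparse library was not tested. Of the same 614 genes, 37.9% (233) were above 0 in the 7 other libraries, as Bcl2l1 was.

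Mcl1, the short-lived pro-survival protein on which megakaryocytes also depend, was detected faintly apart from 1 library (Mcl1, ENSMUSG00000038612, chr3:95658788-95663176, plus strand). It was listed at 0 in Control mice 1 to 3 and measured 0.325 FPKM in Control mouse 4. In TNFdARE mice 1 to 4 it measured 0, 0.274, 0.255 and 7.89 FPKM. TNFdARE mouse 4 alone held 90.2% of the Mcl1 summed over the 8 libraries, and the other 3 TNFdARE mice lay within the Control range. The difference was 0.86 with a standard error of 0.78 and a 95% interval of -0.84 to 2.55 (limma, adjusted p = 0.86), and the exact permutation p was 0.37. It was 0.12 without TNFdARE mouse 4 and 1.17 without TNFdARE mouse 1. Mcl1 passed the filter on low values, a mean of at least 1 FPKM, only through TNFdARE mouse 4. A share this large in 1 library was also seen for 121 of the 1534 tested genes, which is 7.89%. The same library held the highest sum of erythroid markers, 14700 FPKM, and S100a9, a neutrophil gene, at 10.3 FPKM against 0 in the 7 others, while Csf3r, Camp, Ltf and S100a8 were at 0; the part of other cells in this Mcl1 value was not tested.

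Bcl2, the founding member of the family (ENSMUSG00000057329, chr1:106538178-106714274, minus strand), was close to the limit of the table. It was listed at 0 in all 4 Control libraries and in TNFdARE mice 1 and 4, and measured 0.0735 FPKM in TNFdARE mouse 2 and 0.0167 FPKM in TNFdARE mouse 3. The difference on the log2(FPKM + 1) scale was 0.03 and the exact permutation p was 0.43, which is the smallest p a gene above 0 in 2 of 8 libraries can reach, so the test could not have passed. Without TNFdARE mouse 1 the difference was 0.04, and without TNFdARE mouse 2 it was 0.0080. TNFdARE mice 2 and 3 were also the libraries with the most genes above 0, 3187 and 4917.

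The 2 effectors were at low levels or at 0. Bak1, whose product is the main executioner of platelets kept in check by BCL-XL (ENSMUSG00000057789, chr17:27019810-27029009, minus strand), was listed at 0 in the 4 Control libraries and in TNFdARE mice 1 and 4. It measured 0.334 FPKM in TNFdARE mouse 2 and 0.501 FPKM in TNFdARE mouse 3, the same pair of libraries that showed Bcl2. Its difference was 0.25 (exact permutation p = 0.43, two-sided) and 0.33 without TNFdARE mouse 1 (exact p = 0.14), each the smallest p that 2 libraries above 0 allow. It was 0.14 when TNFdARE mouse 3 was left out and 0.50 when both sparsest libraries, TNFdARE mice 1 and 4, were.

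Bax, the second effector (ENSMUSG00000003873, chr7:45461697-45466898, minus strand), was above 0 in 1 library of each genotype. It measured 1.66 FPKM in Control mouse 4 and 0.359 FPKM in TNFdARE mouse 3, and was listed at 0 in the other 6. The difference was -0.24 (exact permutation p = 1, where 0.43 is the smallest p that 2 libraries above 0 allow). Without TNFdARE mouse 1 it was -0.21, and without Control mouse 4 it turned to 0.11. Control mouse 4 had the most genes above 0 among the Control libraries, 2742.

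Bad, a BH3-only protein that binds BCL-XL and BCL-2 (ENSMUSG00000024959, chr19:6941861-6951899, plus strand), and Casp9 (ENSMUSG00000028914, chr4:141793612-141815976, plus strand) were listed at 0 in all 8 libraries. No level or difference can be given for either, and a 0 in this table does not show that the transcript is absent, as Hprt illustrates.

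Libraries with more genes of any kind above 0 tended to show more of the 7. In Control mice 1 to 4 the counts were 1, 1, 1 and 3 of 7, with 1479, 2196, 2302 and 2742 genes above 0. In TNFdARE mice 1 to 4 they were 0, 4, 5 and 2 of 7, with 818, 3187, 4917 and 1225 genes above 0. The sparsest library held none of the 7 and the fullest held 5, and the genotypes overlapped on both measures. The part of detection in the pattern of Bcl2 and Bak1, above 0 only in TNFdARE mice 2 and 3, was not tested.

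**Figure D2:**
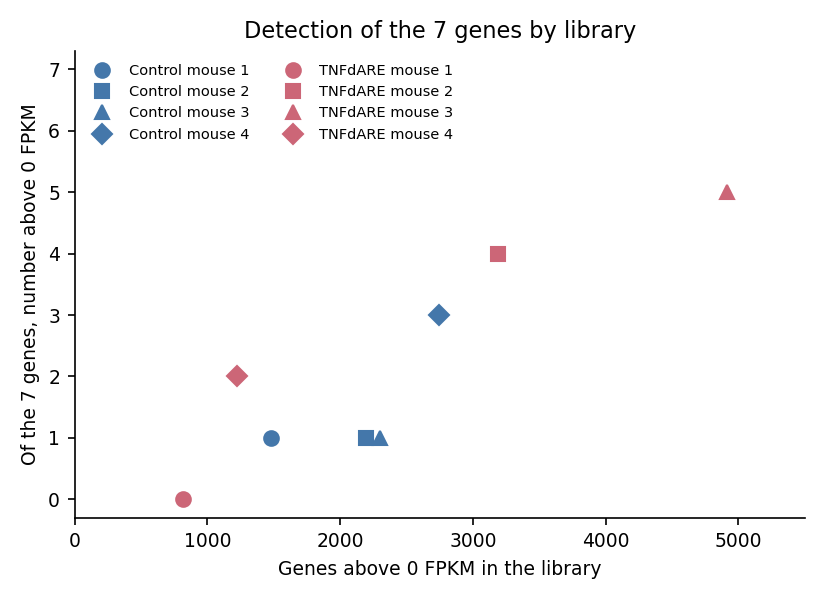
Number of the 7 genes above 0 FPKM (vertical axis) against the number of all genes above 0 FPKM (horizontal axis); each point is 1 mouse, blue for Control and red for TNFdARE. TNFdARE mouse 1, with 818 genes, holds 0 of the 7 and TNFdARE mouse 3, with 4917 genes, holds 5.

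None of the 7 genes was called between genotypes. Of the 7, 5 were above 0 in some library and 2, Bcl2l1 and Mcl1, passed the filter on low values. With limma and Benjamini-Hochberg adjustment 0 of these 2 had an adjusted p under 0.05, against 0 (0%) of the 1534 genes tested. At an unadjusted p under 0.05 the count was again 0 of 2, against 69 (4.50%) of all genes tested, 27 higher and 42 lower in TNFdARE platelets. The groups overlapped for both, while they did not overlap for 51 (3.32%) of the genes tested. With 2 genes tested, a count of 0 does not set them apart from that background. The median difference over all genes tested was -0.30, against which the -0.54 of Bcl2l1 is to be read.

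**Figure D3:**
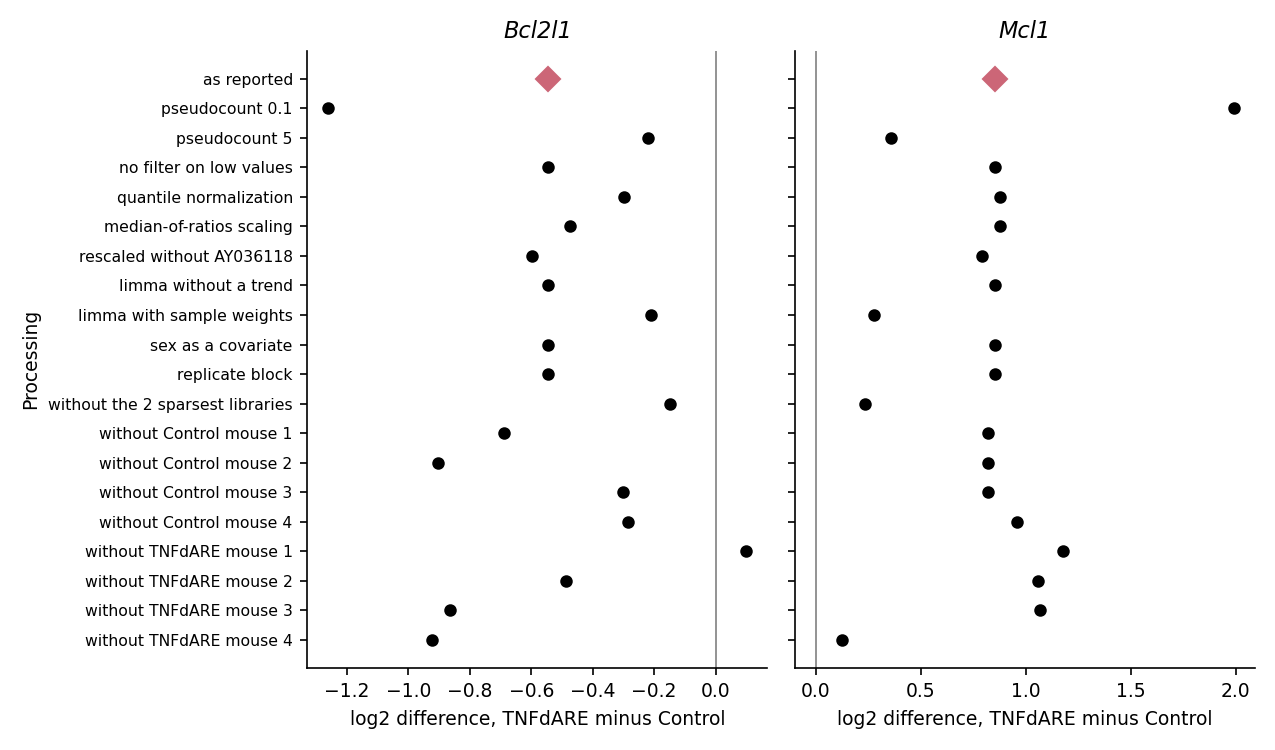
Difference of TNFdARE minus Control on a log2 scale for Bcl2l1 (left) and Mcl1 (right); each row is 1 way of processing the values or 1 library left out, the red diamond is the value as reported and the line marks 0. Bcl2l1 runs from -1.26 to 0.10 and Mcl1 from 0.12 to 1.99.

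The plot of alternatives shows what each of the 2 tested genes rests on. Bcl2l1 stayed below 0 in 18 of 19 alternatives and crossed it only without TNFdARE mouse 1. Mcl1 was above 0 in all 19, with its lowest value when TNFdARE mouse 4 was left out, and no alternative gave either gene an unadjusted p under 0.05 in limma.

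Levels were also compared between the genes within each library, as a description with no test, since Bcl2l1 was taken as the reference after its values had been seen to be the highest. Bcl2l1 was above Mcl1 in 6 libraries, below it in TNFdARE mouse 4 and equal to it at 0 in TNFdARE mouse 1. The mean difference was 1.68 on the log2(FPKM + 1) scale (SD 1.24, n = 8 libraries), and 1.92 without TNFdARE mouse 1. Bcl2l1 was above Bax by 1.97 (SD 1.02), above Bak1 by 2.08 (SD 1.14) and above Bcl2 by 2.19 (SD 1.14), each in 7 of 8 libraries. Without TNFdARE mouse 1 it was above Bax by 2.26 and above Bak1 by 2.38. These 3 genes were listed at 0 in 6 of 8 libraries, so the differences carry the doubt about values of 0. Levels after Bcl2l1 followed the order Mcl1, Bax, Bak1 and Bcl2 by mean FPKM (4.73 for Bcl2l1, then 1.09, 0.253, 0.104 and 0.0113), but each of the last 4 was at 0 in 4 or more libraries and their ranges overlapped. Mcl1 stood above Bax in this order only through TNFdARE mouse 4, which held 90.2% of the summed Mcl1.

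Other members of the family gave context to the balance of roles. Of 8 pro-survival genes, 4 were above 0 in some library, the fourth being Bcl2l2, which encodes BCL-W and measured 5.54 FPKM in TNFdARE mouse 1, where Bcl2l1 was at 0, and at most 0.294 FPKM elsewhere. Summed over the 8 genes, pro-survival transcripts were 3.13, 1.63, 8.23 and 9.20 FPKM in Control mice 1 to 4 and 5.54, 2.75, 6.72 and 15.3 FPKM in TNFdARE mice 1 to 4. The 3 effectors (Bax, Bak1 and Bok) summed to 0, 0, 0 and 1.66 FPKM in Control and 0, 0.334, 0.860 and 0 FPKM in TNFdARE mice. In every library the pro-survival sum over 8 genes was larger than the effector sum over 3, by at least 1.63 FPKM, and the genotypes overlapped on both sums. BH3-only and other related genes, 7 of 14 above 0, summed to 5.05 to 9.37 FPKM in Control and 0.416 to 11.4 FPKM in TNFdARE libraries, with Bnip3l the largest term in 6 of 8 libraries. This sum exceeded the pro-survival sum in 5 of 8 libraries, Control mice 1 to 3 and TNFdARE mice 1 and 2. There Bnip3l alone measured 4.72, 4.60 and 5.02 FPKM in Control and 11.4 and 3.52 FPKM in TNFdARE mice. With Bnip3l left out, the sum was below the pro-survival sum in each of these libraries. The excess thus rests on Bnip3l, whose value is uncertain.

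**Figure D4:**
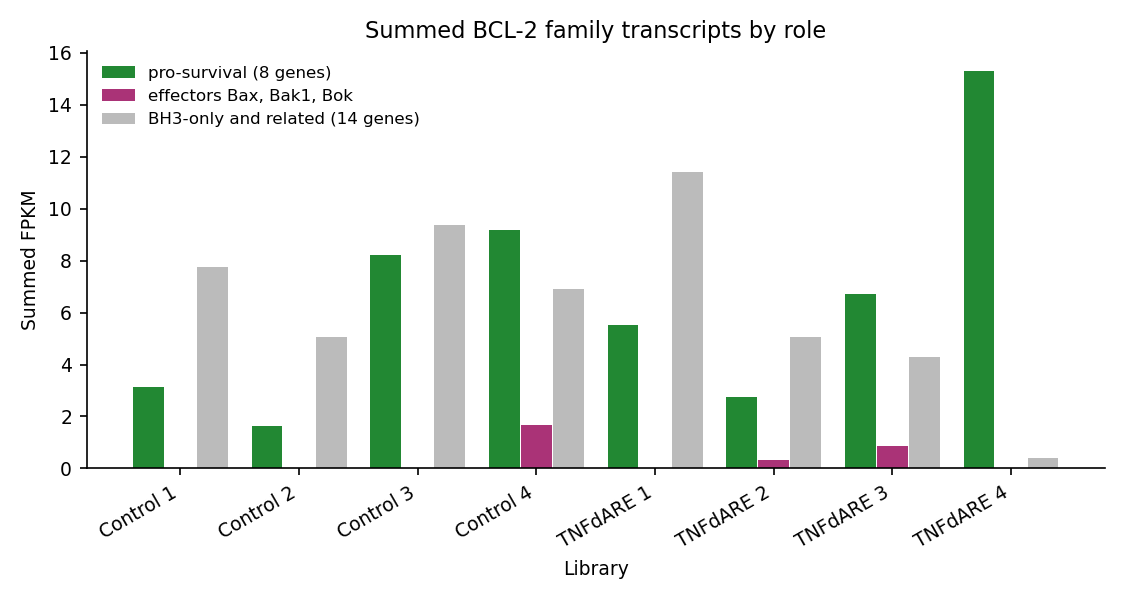
Summed FPKM of 8 pro-survival genes (green), 3 effectors (magenta) and 14 BH3-only and related genes (grey) in each platelet library, 1 bar per sum. The effector sum is 0 in 5 of 8 libraries and highest in Control mouse 4 at 1.66 FPKM, while the pro-survival sum runs from 1.63 to 15.3 FPKM.

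Among BH3-only and related genes 2 were tested and both were lower in the mean without passing the test. Bid, which links death receptors to mitochondria once caspase-8 cleaves it, measured 0.447 to 3.02 FPKM in Control and 0 to 0.893 FPKM in TNFdARE mice, a difference of -0.71 (SE 0.67), which was -0.54 without TNFdARE mouse 1 and -0.46 without Control mouse 1. Bid passed the filter on low values only through the Control mice, so its lower mean in TNFdARE mice cannot be separated from that filter. Part of Bid overlaps Bcl2l13 on the opposite strand. Bnip3l, which encodes the mitophagy receptor NIX that clears mitochondria from maturing red cells, ranged from 1.72 to 5.02 FPKM in Control and from 0 to 11.4 FPKM in TNFdARE mice, a difference of -0.35 (SE 0.79) that became 0.28 without TNFdARE mouse 4 and -0.93 without TNFdARE mouse 1. A processed copy, Bnip3l-ps, matches it at 99.2% identity, so its value is uncertain. Bbc3, encoding PUMA, was above 0 only in Control mouse 4 (3.63 FPKM) and TNFdARE mouse 3 (0.514 FPKM), the same 2 libraries that showed Bax and Bcl2l11, which encodes BIM.

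Downstream of the mitochondria, 12 of 22 apoptosome, caspase and inhibitor genes were above 0 and 3 were tested, 0 with an unadjusted p under 0.05 against 4.50% of all genes tested. Htra2, a mitochondrial protease that antagonises inhibitors of apoptosis, measured 4.19 to 6.40 FPKM in Control and 0 to 7.02 FPKM in TNFdARE mice. Its difference of -0.79 (SE 0.73) was -0.20 without TNFdARE mouse 1 and -1.20 without TNFdARE mouse 3. The sign turned with sample weights (0.087) and without both sparsest libraries (0.14). The difference of Birc2, encoding cIAP1, was -0.72 (SE 0.71), -0.54 without TNFdARE mouse 1 and -1.14 without Control mouse 2. Like Bid, Birc2 passed the filter on low values only through the Control mice, so its lower mean cannot be separated from that filter. Cflar, encoding the caspase-8 inhibitor c-FLIP, had a difference of 0.09 (SE 0.82), which was 0.36 without TNFdARE mouse 1. Its sign turned in 4 of 19 alternatives, reaching -0.38 without TNFdARE mouse 2, so its direction is not fixed. Levels of Htra2 and Cflar are uncertain, since Htra2 shares 753 exonic bases with Aup1 on the opposite strand and 140 other genes match a stretch of a Cflar transcript.

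Of 10 outer-membrane channels and partners of BAX and BAK, 9 were above 0 and 5 were tested, 3 higher and 2 lower in the mean. Of these 5, 0 had an unadjusted p under 0.05, against 4.50% of all genes tested. Tpt1, whose product binds MCL-1 and BCL-XL, came closest. It measured 0.138 to 12.1 FPKM in Control and 8.78 to 52.9 FPKM in TNFdARE mice, the highest being TNFdARE mouse 1, so the groups overlapped. Its difference was 1.71 (SE 0.83, limma adjusted p = 0.86), 1.17 without TNFdARE mouse 1 and 0.97 without Control mouse 1, the library at 0.138 FPKM. None of these 3 fits gave an unadjusted p under 0.05 in limma. Fits with quantile scaling (1.65), with sex as covariate (1.71) and without Control mouse 2 (2.14) did, but none gave an adjusted p under 0.05. Its highest values were in TNFdARE mice 1 and 4 (52.9 and 15.9 FPKM), which also had the highest erythroid sums, 6957 and 14700 FPKM against at most 2962 elsewhere; the part of erythroid RNA in the Tpt1 difference was not tested. Tpt1 has several processed copies in the genome, of which Tpt1-ps6 matches at 97.9% identity, so the level is uncertain. Vdac1, an outer-membrane channel, had a difference of -0.89 (SE 0.91), and Tmbim6, the BAX inhibitor 1 of the endoplasmic reticulum, one of 0.62 (SE 0.68). With 1 library left out, Vdac1 ran from -1.55 (without Control mouse 1) to -0.41 (without Control mouse 2), and Tmbim6 from 0.27 (without Control mouse 3) to 0.95 (without TNFdARE mouse 2). Without TNFdARE mouse 1 they were -0.51 and 0.54. Vdac1 turned to 0.23 without both sparsest libraries, and Tmbim6 to -0.020 with sample weights. Bag1, a chaperone partner that binds BCL-2, had a difference of -0.33 (SE 0.77), which was -0.13 without TNFdARE mouse 1. Leaving out TNFdARE mouse 3 gave -0.77 and leaving out Control mouse 4 gave -0.0010. Its sign turned with sample weights (0.089) and without both sparsest libraries (0.25). Bag1 passed the filter on low values only through the Control mice, so its lower mean cannot be separated from that filter. Bcap31, an endoplasmic reticulum protein cleaved by caspase-8, had one of 0.36 (SE 1.01), which was 1.12 without TNFdARE mouse 1 and -0.28 without Control mouse 1.

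Of 11 other genes of platelet clearance and lifespan, 5 were above 0 and 3 were tested, 0 with an unadjusted p under 0.05 against 4.50% of all genes tested. Gp1ba, a subunit of the von Willebrand factor receptor, measured 6.39 to 15.0 FPKM in Control and 7.43 to 12.4 FPKM in TNFdARE mice, a difference of -0.01 (SE 0.54). Its sign turned under several alternatives, among them 0.13 without TNFdARE mouse 1. Cd47, the signal that restrains phagocytosis, measured 1.18 to 1.73 FPKM in Control and 0.146 to 4.50 FPKM in TNFdARE mice, a difference of 0.28 (SE 0.70) that was 0.16 without TNFdARE mouse 1 and 0.74 without TNFdARE mouse 4. Both were above 0 in all 8 libraries. Genes for exposure of phosphatidylserine, the surface lipid of dying and activated platelets, were above 0 for 3 of 7, with none tested. Over the 7 lists together, 15 of 75 genes were tested, 6 higher and 9 lower in the mean with a median of -0.13. Of these 15, 0 had an unadjusted p under 0.05 in limma, against 69 (4.50%) of the 1534 genes tested, so the count does not set the lists apart. Over all genes tested 568 were higher and 966 lower. Bid, Birc2 and Bag1, among the lower, passed the filter only through Control mice, and Mcl1, among the higher, only through TNFdARE mouse 4.

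**Figure D5:**
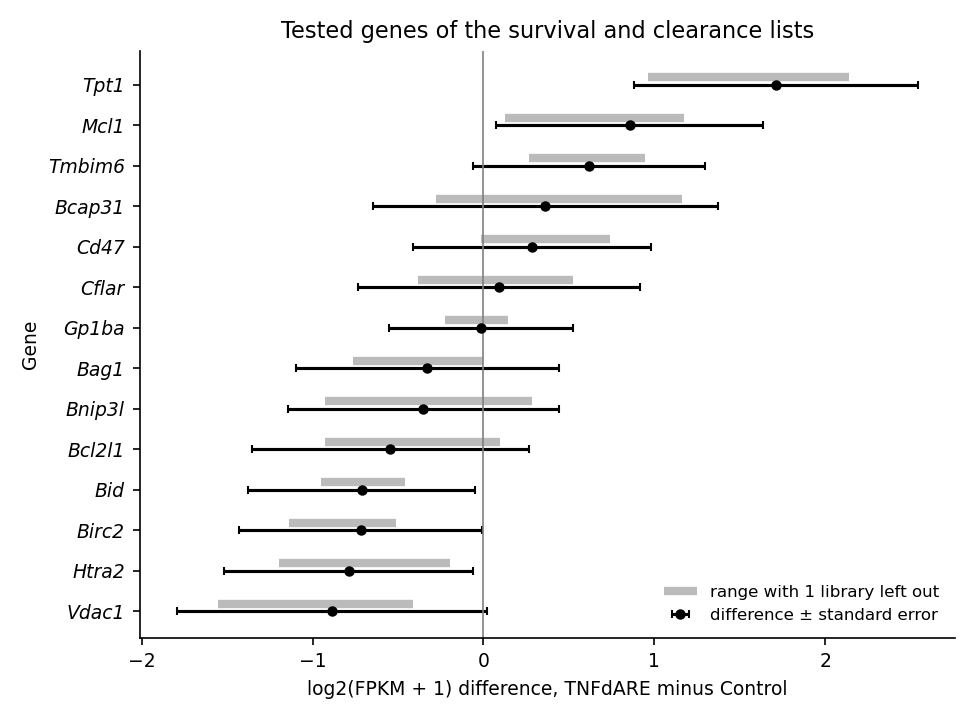
Difference of TNFdARE minus Control in log2(FPKM + 1) for 14 of the 15 tested genes of the survival and clearance lists; points are differences with n = 4 mice per group, thin bars are 1 standard error either way, and grey bars are the range when 1 library is left out. Tpt1 is highest at 1.71 and Vdac1 lowest at -0.89, and the grey bar of Bcl2l1 crosses 0.

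Bcl2l1 was the only one of the 7 genes above 0 in at least 6 mice, so likeness could be described for it alone. Over the 8 mice the 3 tested genes with the closest profile were Mkrn1-ps1 (Pearson r = 0.95, Spearman rho = 0.76), Ctsd (r = 0.93, rho = 0.90) and Stk24 (r = 0.92, rho = 0.69). They were picked as the highest of 1534, the libraries share their sparsity, and TNFdARE mouse 1 was the lowest library for each. Without it the r values were 0.86, 0.82 and 0.79. Mkrn1-ps1 is by name a copy of Mkrn1, a gene on the erythroid list, and whether reads of Mkrn1 enter its value was not tested. Ctsd, the lysosomal protease cathepsin D, measured 18.4, 15.4, 31.6 and 22.1 FPKM in Control mice 1 to 4 and 5.43, 18.8, 19.7 and 24.7 FPKM in TNFdARE mice 1 to 4.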

How the data were processed

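The authors prepared RNA from washed platelets with TRIzol, DNase and columns and sequenced it as paired 150 bp reads. The deposited table holds 1 value per gene and mouse; the submitters' processing notes name Cufflinks and build mm10, so the values were taken as FPKM. Versions, annotation, strand setting and handling of reads with several matches are not given in the sources used here. The columns sum to 46047 to 99470, with no common total, and a search for the step of 1 read placed at most 50.5% of low values near whole steps, so no counts could be recovered and no count test was run. The number of value columns not mapped to a sample was 0. Replicates are separate mice. Spatial data from bone marrow were not analysed here.

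The test was limma 3.58.1 under R 4.3.3, applied to values on the log2(FPKM + 1) scale (empirical Bayes with trend, no covariate, Benjamini-Hochberg adjustment over 1534 genes with a mean of at least 1 FPKM), and single genes also with two-sided exact permutation tests over mice. The procedure was tested on simulated data, whose outcome is not given here and on which no result rests. The lists of relatives, like the 7 genes, were chosen with earlier results of these data known. Named genes were all 7, every tested gene of 7 lists of relatives (75 genes) except 1 that is not reported here, the 3 genes most like each member above 0 in at least 6 mice, and others where a result turned on them; Bcl2l2, Bbc3 and Bcl2l11 were named after their values were seen. Of 43548 identifiers, 42470 were found in GENCODE M21. Alternatives were pseudocounts of 0.1 and 5, no filter and a mean of at least 5 FPKM, quantile and median-of-ratios scaling, rescaling without AY036118, limma without trend or with sample weights, sex as covariate, a replicate block, each library left out in turn, and both sparsest libraries left out.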

Additional observations from a re-analysis of the deposited data

Results flagged for a closer look

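For those of the 7 genes above 0 and the tested genes of the 7 lists, 1 library lay far from the others in 8 of the 34 groups of 4 mice examined (groups wholly at 0 were left out). Its gap to the nearest, as a share of the range of the group, exceeded Dixon's 95% critical value. The genes picked for likeness to Bcl2l1 were not examined in this way. Chance marks about 1 group in 20 where values follow a normal distribution, which was not checked for these FPKM values. In 3 of the 8 the share was 1 because a single library was above 0. The count therefore cannot be read against that rate. With Bcl2l2, Bbc3 and Bcl2l11, added after their values had been seen, the count was 14 of 40. In 7 of the 14 that library was the only one above 0, which puts the share at 1. These were Control mouse 4 for Mcl1 (0.325 FPKM), Bax (1.66 FPKM), Bbc3 (3.63 FPKM) and Bcl2l11 (0.683 FPKM), and TNFdARE mouse 3 for Bax (0.359 FPKM), Bbc3 (0.514 FPKM) and Bcl2l11 (0.0801 FPKM). Mcl1 in TNFdARE mouse 4, at 7.89 FPKM, lay above the other TNFdARE mice with a share of 0.965. Bcl2l2 lay above its group in TNFdARE mouse 1 (5.54 FPKM, share 0.995) and in Control mouse 4 (0.294 FPKM, share 0.999999). Bag1 in TNFdARE mouse 3 (2.71 FPKM, share 0.874), Tpt1 in TNFdARE mouse 1 (52.9 FPKM, share 0.838) and Bcap31 in Control mouse 3 (19.0 FPKM, share 0.829393) lay above their groups. Bnip3l in Control mouse 4 (1.72 FPKM, share 0.872) lay below the other Control mice.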

How the results depend on the processing

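No gene had an adjusted p under 0.05 in limma under any of the 20 alternatives (smallest adjusted p 0.055 to 0.90). Of the 7 genes, limma fitted 2 in most alternatives, 5 with no filter and 0 with a minimum mean of 5 FPKM. None of those fitted had an unadjusted p under 0.05 in limma. Bad and Casp9, at 0 throughout, were never fitted. The 69 genes with an unadjusted p under 0.05 became 36 with a minimum mean of 5 FPKM (583 genes tested, none of the 7 among them) and 111 with sample weights; leaving out 1 library gave 46 to 75. The split of 27 higher and 42 lower turned to 34 and 25 with quantile scaling, 74 and 37 with sample weights, 51 and 13 without both sparsest libraries, 8 and 41 when Control mouse 1 was left out, 35 and 27 when TNFdARE mouse 1 was, and 26 and 20 when TNFdARE mouse 4 was; the cause was not tested. The median over all genes moved from -0.30 to -0.14 without TNFdARE mouse 1, -0.06 with quantile scaling, -0.01 with sample weights, 0.0088 with no filter and 0.011 without both sparsest libraries.

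With the replicate block 64 genes passed and Bcl2l1 stayed at -0.54. The block used the numbers in the sample titles, and equal numbers name different animals. Same-number correlations ran from -0.067 to 0.060, and 1 of 4 mice matched its own number best. Library names share a number between Control mouse 1 and TNFdARE mouse 1, and another between Control mouse 4 and TNFdARE mouse 3. No block by library name was fitted, so a structure that follows these names was not tested. With 1 library left out, Bcl2l1 ran from -0.92 to 0.10 (without TNFdARE mouse 1), Bax from -0.36 to 0.11 (without Control mouse 4), Bnip3l from -0.93 to 0.28, Cflar from -0.38 to 0.52, Bcap31 from -0.28 to 1.16, Gp1ba from -0.23 to 0.14 and Cd47 from -0.015 to 0.74. Signs also turned for Bnip3l (0.0029) and Gp1ba (0.23) with quantile scaling, Gp1ba with median-of-ratios scaling (0.046), Htra2 (0.087), Tmbim6 (-0.020), Bag1 (0.089) and Gp1ba (0.34) with sample weights, and Htra2 (0.14), Vdac1 (0.23), Bag1 (0.25) and Gp1ba (0.15) without both sparsest libraries. Tpt1 passed an unadjusted p under 0.05 in limma with quantile scaling (1.65), sex as covariate (1.71) and without Control mouse 2 (2.14). Unknown depth limits all of this, and genes at 0 in most libraries cannot be ranked.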
